A study of Mus musculus with 40 samples.

Results

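The genes of bone morphogenetic protein (BMP) and transforming growth factor beta (TGF-β) signalling were followed as 48 named members, taken from a list of ligands, receptors, extracellular antagonists, Smads and Id genes, among 21951 protein-coding genes of the GENCODE M21 annotation. They comprised 12 BMP and growth differentiation factor (GDF) ligands, 5 TGF-β and activin ligands, 11 receptors, 8 antagonists and modulators, 8 Smads and 4 Id genes. For each member, peaks of H3K4me3 and H3K27me3 were read at its promoters, defined as 2000 bp upstream to 1000 bp downstream of every annotated transcript start on mm10. The ChIP-seq peak lists came from oligodendrocyte precursor cell (OPC) cultures, kept in a growth medium containing forskolin, CNTF, neurotrophin-3 and PDGF and not differentiated. Cells were isolated by binding to a PDGFRα antibody from litters of the AMGFAP-Cre;K27M line aged P5-P7, with the tissue of several animals pooled by region and genotype. The K27M cultures carried a Cre-dependent H3.3 K27M allele, switched on by a Cre that the study describes as active from embryonic neural stem and progenitor cells onward, and the Control cultures came from littermates. Brainstem Control and K27M cultures were numbered 59 and 61, and Control and K27M cultures of the dorsal telencephalon, labelled cortex but also holding corpus callosum and hippocampus, were numbered 59, 60 and 61. Each culture gave 1 library per mark, 20 in all, and each K27M culture had a Control partner of the same region and number, which made 5 pairs.

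BMPs, GDFs, activins and TGF-βs are secreted dimers that bring type I and type II serine/threonine kinase receptors together at the cell surface. The receptors phosphorylate *Smad1*, *Smad5* and *Smad9* proteins on the BMP side and *Smad2* and *Smad3* proteins on the TGF-β and activin side, which enter the nucleus with the protein of *Smad4*, while *Smad6* and *Smad7* encode inhibitors and the Id genes are classical BMP targets. In OPCs, BMP signalling is known to restrain oligodendrocyte differentiation and to favour astrocyte fate. H3K4me3 marks promoters that are active or open to activation, H3K27me3 is deposited by Polycomb and marks repressed chromatin, and a promoter with both marks is called bivalent. The K27M form of histone H3 inhibits the enzyme that deposits H3K27me3.

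Promoter sequences of 6 members are shown because these promoters carried the contrasts described below: *Gdf7* and *Smad6*, where H3K27me3 was found in every culture, *Grem1*, *Inhba* and *Inhbb*, where peaks covered less of the promoter in K27M, and *Id4*, where the mark varied between cultures. Each is the 250 bases upstream of the RefSeq transcript start (GRCm38.p6), 5′ to 3′ on the gene's strand, with capitals for GGCGCC, the core of a BMP response element, and for CAGAC or its reverse complement GTCTG, the core of a Smad-binding element. GGCGCC is its own reverse complement, and an adjoining CAGAC or GTCTG can share 1 base with it.
*Gdf7* (chr12:8301955-8302204, minus strand): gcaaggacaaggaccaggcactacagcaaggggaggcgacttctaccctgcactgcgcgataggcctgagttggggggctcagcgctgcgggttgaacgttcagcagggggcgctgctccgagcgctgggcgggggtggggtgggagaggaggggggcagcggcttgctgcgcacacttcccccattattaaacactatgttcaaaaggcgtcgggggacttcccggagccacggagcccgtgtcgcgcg
*Smad6* (chr9:64022060-64022309, minus strand): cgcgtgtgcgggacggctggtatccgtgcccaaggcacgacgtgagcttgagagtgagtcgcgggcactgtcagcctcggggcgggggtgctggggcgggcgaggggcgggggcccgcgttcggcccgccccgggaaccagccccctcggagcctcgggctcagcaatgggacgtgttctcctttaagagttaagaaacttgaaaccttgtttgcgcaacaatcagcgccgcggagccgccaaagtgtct
*Grem1* (chr2:113758649-113758898, minus strand): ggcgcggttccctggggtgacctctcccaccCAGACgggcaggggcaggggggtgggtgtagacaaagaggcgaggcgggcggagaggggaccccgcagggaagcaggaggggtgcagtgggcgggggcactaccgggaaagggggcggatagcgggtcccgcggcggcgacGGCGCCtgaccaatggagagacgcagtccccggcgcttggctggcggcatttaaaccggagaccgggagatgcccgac
*Inhba* (chr13:16011601-16011850, plus strand): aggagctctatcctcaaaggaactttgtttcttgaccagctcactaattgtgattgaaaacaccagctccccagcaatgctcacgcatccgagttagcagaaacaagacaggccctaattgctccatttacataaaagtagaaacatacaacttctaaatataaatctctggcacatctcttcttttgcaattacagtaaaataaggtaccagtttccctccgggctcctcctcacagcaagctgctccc
*Inhbb* (chr1:119422249-119422498, minus strand): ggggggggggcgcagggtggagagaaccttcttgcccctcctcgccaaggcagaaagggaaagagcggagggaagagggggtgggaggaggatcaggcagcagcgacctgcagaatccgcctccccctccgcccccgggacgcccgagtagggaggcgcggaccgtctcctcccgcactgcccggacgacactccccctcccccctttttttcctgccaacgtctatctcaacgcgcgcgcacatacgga
*Id4* (chr13:48260866-48261115, plus strand): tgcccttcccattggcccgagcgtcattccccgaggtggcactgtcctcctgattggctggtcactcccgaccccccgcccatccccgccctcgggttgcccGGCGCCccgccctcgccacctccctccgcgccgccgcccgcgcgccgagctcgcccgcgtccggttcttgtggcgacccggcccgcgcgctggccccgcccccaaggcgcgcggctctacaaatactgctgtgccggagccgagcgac
The *Inhba* stretch held 1.20 CpG per 100 bp, against 8.00 for *Gdf7*, 10.8 for *Smad6*, 9.60 for *Grem1*, 8.40 for *Inhbb* and 14.0 for *Id4*. GGCGCC occurred once in *Grem1* and once in *Id4*, CAGAC once in *Grem1*, and neither motif in the other 4 stretches.

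Of the 48 members, 34 had an entry in the RefSeq promoter table, in windows of 300 bp from 250 bp before to 50 bp after the start. Those without one were *Bmp2*, *Bmp3*, *Bmp7*, *Gdf5*, *Gdf6*, *Tgfb3*, *Acvrl1*, *Tgfbr3*, *Nog*, *Fst*, *Smad2*, *Smad4*, *Smad7* and *Id1*. For each of the 34, the promoter nearest to the annotated 5′ end was taken, which at *Bmpr1b* lay 187161 bp away. No such choice was made for the 32851 promoters of the table. The promoters of the 34 members had a median of 9.17 CpG per 100 bp, against 2.33 over all those of the table. GGCGCC was in 11 of the 34 (32.4%) and in 11.9% of all promoters of that length, and CAGAC on either strand in 14 (41.2%) and 49.6%. By H3K27me3, the median was 9.33 CpG per 100 bp for the 8 members with a promoter peak in all 10 cultures, 8.00 for the 20 with one in some cultures and 14.0 for the 6 with none. These are descriptions of letters, and genes of one list are not independent samples.

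The peak lists gave 20961 to 31200 H3K4me3 peaks and 4739 to 64808 H3K27me3 peaks per library. They hold no read counts, so depth is unknown from these files and signal under the caller's threshold was not measured. The study reports read totals per library, which differ within pairs, and these totals were not used here. The part of depth in the results was not tested. Telencephalon Control 59 stood apart from the other controls, with 12715 H3K27me3 peaks against 25632 to 64808, and with the lowest median H3K4me3 fold enrichment of all libraries, 3.57 against 4.98 to 13.8. The OPC markers *Pdgfra*, *Cspg4*, *Olig1*, *Olig2* and *Sox10* had an H3K4me3 peak in all 10 cultures and an H3K27me3 peak in none. Endothelial cells and microglia had been depleted on BSL1-coated dishes. Of 5 microglial markers, *Aif1*, *Cx3cr1*, *Csf1r* and *Tmem119* had no H3K4me3 peak in any culture and *P2ry12* had one in 8 of the 10. Of 4 endothelial markers, *Flt1* and *Kdr* had one in all 10, *Cldn5* in 5 and *Pecam1* in none, and all 4 neuronal markers had one in all 10. Of 4 astrocyte markers, *Slc1a3* had one in all 10, *Gfap* and *Aldh1l1* in 6 and *Aqp4* in 1. *Aldh1l1* had one in 1 of 3 telencephalon controls and in all 3 telencephalon K27M cultures, and an H3K27me3 peak in 4 of the 5 controls and in no K27M culture. *Slc1a3* had an H3K27me3 peak in 2 of the 5 controls and in no K27M culture. *Gfap* had one in 1 brainstem control, 2 telencephalon controls and 2 telencephalon K27M cultures, and *Aqp4* had none in any culture. The part of astrocytes in the results was not tested. The H3.3 K27M allele itself cannot be checked from peaks. The study treats each culture number as an independent culture, and the labels do not say which litters they came from. Brainstem and telencephalon cultures share numbers, and the study separated both regions from the brains of dissected litters. Cultures of the same number may therefore share animals, so the 5 pairs may not be independent. The SDs over pairs do not allow for this.

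In brainstem controls 16 of the 48 members (33.3%) were bivalent by the consensus peaks of the cultures, against 9.32% of protein-coding genes, and in telencephalon controls 25 (52.1%) against 14.5%. A consensus peak needed support in at least 2 cultures, and any promoter with both marks made a gene bivalent, failing which any promoter with H3K4me3 alone made it H3K4me3 only. In bulk cultures, both marks on the same nucleosomes and each mark in a different share of the cells cannot be told apart. The ligands and antagonists held most of these promoters. Of 12 BMP and GDF ligands 7 were bivalent in the brainstem and 8 in the telencephalon, of 5 TGF-β and activin ligands 2 and 3, of 8 antagonists 4 and 6, of 11 receptors 1 and 4, of 8 Smads 1 and 2, and of 4 Id genes 1 and 2. H3K4me3 only was the state of 28 members in the brainstem and 21 in the telencephalon, among them 9 and 7 receptors and 7 and 6 Smads. In K27M cultures 14 members were bivalent in the brainstem (29.2%, against 6.16% of protein-coding genes) and 16 in the telencephalon (33.3%, against 6.93%). *Bmp8b* and *Acvrl1* were H3K27me3 only in the brainstem (4.17%, against 3.36% of protein-coding genes), and 0 members were so in the telencephalon (3.43%). *Bmp5* and *Gdf5*, the latter a ligand of joint and cartilage formation, were unmarked in both regions.

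The members bivalent in both regions were *Bmp2*, *Bmp3*, *Bmp4*, *Bmp6*, *Gdf6*, *Gdf7*, *Gdf10*, *Tgfb1*, *Inhba*, *Tgfbr3*, *Nog*, *Grem1*, *Fst*, *Fstl4*, *Smad6* and *Id4*. An H3K27me3 peak lay at a promoter of 14 members in all 10 cultures (29.2%, against 5.79% of protein-coding genes), and 8 of these were BMP or GDF ligands. No culture had one at *Bmp7*, *Gdf11*, *Bmpr1a*, *Acvr1*, *Acvr2a*, *Acvr2b*, *Twsg1* or *Smad4*, 8 members (16.7%, against 63.5%), of which 4 encode receptors. In the map of promoter states by culture, most BMP and GDF ligands carry H3K27me3 in every column and most receptors do not.

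**Figure D1:**
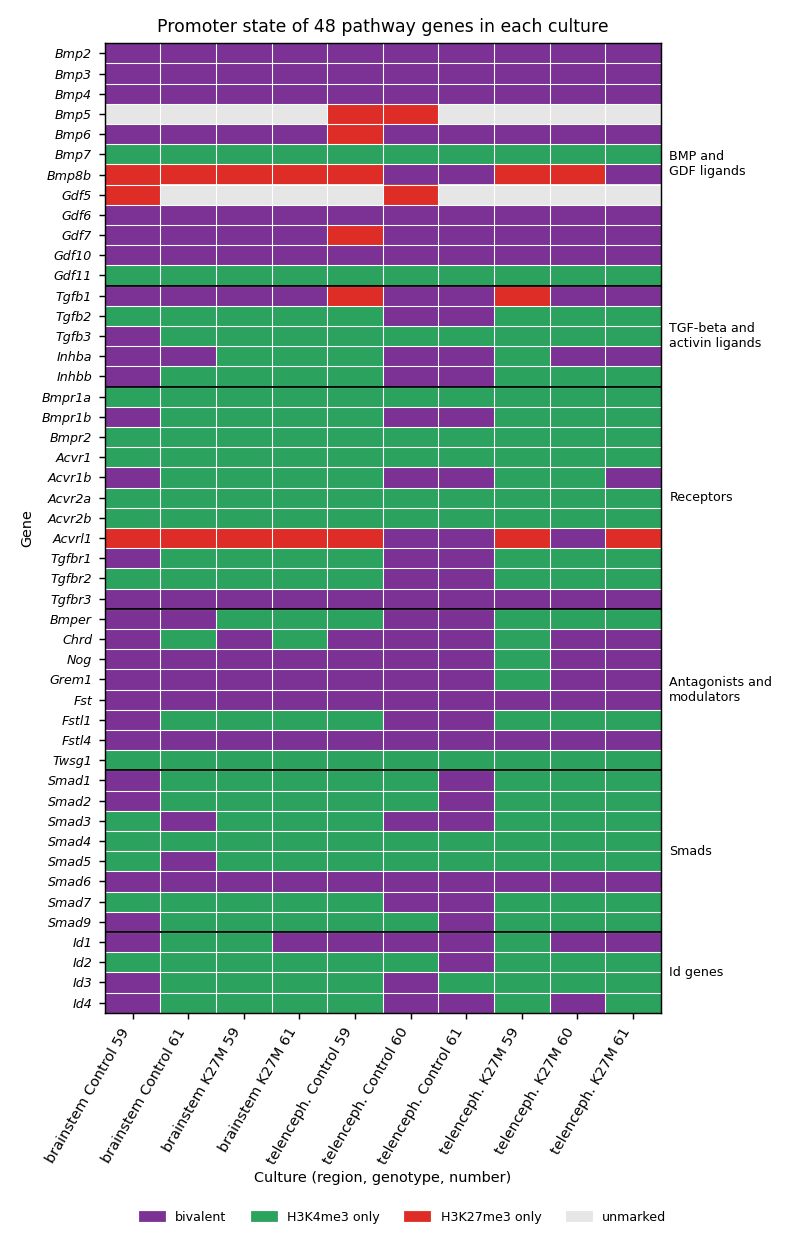
Promoter state of each of the 48 members (rows, grouped by class of protein) in each of the 10 cultures (columns: region, genotype and culture number), from the peaks of that culture alone: both marks at one promoter (bivalent, purple), H3K4me3 only (green), H3K27me3 only (red) or neither (grey). The 14 members with an H3K27me3 promoter peak in all 10 cultures include 8 of the 12 BMP and GDF ligands. *Bmpr1a*, *Bmpr2*, *Acvr1*, *Acvr2a* and *Acvr2b* have the state H3K4me3 only throughout. In 7 cultures *Bmpr2* also had an H3K27me3 peak, at another promoter than its H3K4me3.

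To compare the regions, the states of the controls were set side by side. For 9 of the 48 members (18.8%, against 9.30% of protein-coding genes) the state differed, each time as bivalent in the telencephalon and not in the brainstem (5.68% of protein-coding genes), and in the reverse direction 0 members differed (0.510%). *Bmp8b*, a BMP ligand, and *Acvrl1*, the endothelial type I receptor also called ALK1, had H3K27me3 in all controls, and the difference lay in H3K4me3. Here and below, coverage is the percentage of a gene's promoter bases under peaks, and the cultures of each group follow in the order of their numbers. At *Bmp8b*, H3K4me3 peaks covered 0% in both brainstem controls and 0% in both brainstem K27M cultures, and 0%, 22.6% and 15.9% in the telencephalon controls and 0%, 0% and 9.55% in the telencephalon K27M cultures. At *Acvrl1* the H3K4me3 coverage was 0% in both brainstem controls and 0% in both brainstem K27M cultures, and 0%, 8.99% and 17.3% in the telencephalon controls and 0%, 2.85% and 0% in the telencephalon K27M cultures. Both genes thus had H3K4me3 in telencephalon controls 60 and 61 and not in telencephalon control 59. For the other 7, *Inhbb*, *Bmpr1b*, *Acvr1b*, *Bmper*, *Chrd*, *Smad3* and *Id1*, H3K4me3 was present in every control and the consensus differed in H3K27me3, although at *Bmper* and *Smad3* both brainstem controls also had an H3K27me3 promoter peak.

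The count in the telencephalon rested on cultures 60 and 61 together. Without culture 60 or without culture 61, 11 members were bivalent there (4.95% and 4.85% of protein-coding genes), fewer than the 16 of the brainstem. Without culture 59 the count was 25 again (14.4%). The brainstem count was 12 without culture 59 (4.07%) and 20 without culture 61 (9.22%). Each of these brainstem counts rests on the 1 control left, whose own peaks past the stringent threshold were used, because support in 2 cultures could not be asked for. With a peak of each mark required in every control culture, 16 members were bivalent in the brainstem (10.7% of protein-coding genes) and 13 in the telencephalon (4.73%). By covered length, 0 members had more promoter H3K27me3 in each telencephalon control than in each brainstem control (0.223% of protein-coding genes), and 2, *Bmp8b* and *Fstl4*, had less (4.17%, against 0.843%). The count of members whose state differed was 5 without culture 60 (8.24% of protein-coding genes). It was 13 without culture 59 (14.8%) and 9 without culture 61 (8.32%), both with the 1 brainstem control left. With 2 cultures against 3, the difference between regions was not tested.

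The K27M and control cultures were compared within the 5 matched pairs. H3K27me3 promoter peaks were found at fewer members in K27M in every pair, at 18 instead of 33 members in brainstem 59 and 18 instead of 21 in brainstem 61, and at 15 instead of 21, 22 instead of 35 and 22 instead of 34 in telencephalon 59, 60 and 61. The mean difference was −20.4 percentage points of the members (SD 10.6, n = 5 pairs), beside −12.0 (SD 7.33) over all protein-coding genes. Of the members with a peak in the control, 51.5%, 81.0%, 66.7%, 62.9% and 61.8% kept one in these pairs, in that order, beside 35.0%, 61.8%, 60.5%, 47.2% and 33.9% of all protein-coding genes with one. In each pair the members started from a higher share with H3K27me3 than all genes and kept a higher share of it, and the plot of the matched pairs shows the shares by culture. Among members bivalent in the controls of a region, 14 of 16 (87.5%) kept a peak in both K27M cultures of the brainstem and 14 of 25 (56.0%) in all 3 of the telencephalon, beside 72.9% and 38.9% of all bivalent genes. No p was computed over the list.

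In the brainstem 19 members had a peak in every control (39.6%, against 15.8% of protein-coding genes) and 16 in every control and every K27M culture (33.3%, against 9.19%). In the telencephalon these were 20 (41.7%, against 9.67%) and 14 (29.2%, against 5.96%). A peak in every K27M culture of a region and in none of its controls was found at 0 members in either region (0.146% of protein-coding genes in the brainstem, 0.00456% in the telencephalon). Promoter coverage of every K27M culture lay below that of every control for 12 members in the brainstem (against 10.8% of protein-coding genes) and for 2 in the telencephalon, *Tgfbr3* and *Smad1* (against 2.69%).

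When only peaks of at least 3-fold enrichment were used, the mean difference was −4.17 percentage points, and with equal numbers of peaks in every library −6.25, beside −3.61 and −2.45 over all protein-coding genes. For single genes, an exact two-sided permutation test that flips the signs of the 5 differences cannot give a p below 0.063. No gene could thus pass 0.05, and the text states how many pairs moved in a direction instead. The test takes the 5 pairs as independent, although the regions share culture numbers, and this independence was not tested. Benjamini-Hochberg adjusted p-values over the 21951 genes had a minimum of 1.00 for promoter coverage and 0.625 for coverage within 10 kb, and 0 genes had an unadjusted p under 0.05.

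**Figure D2:**
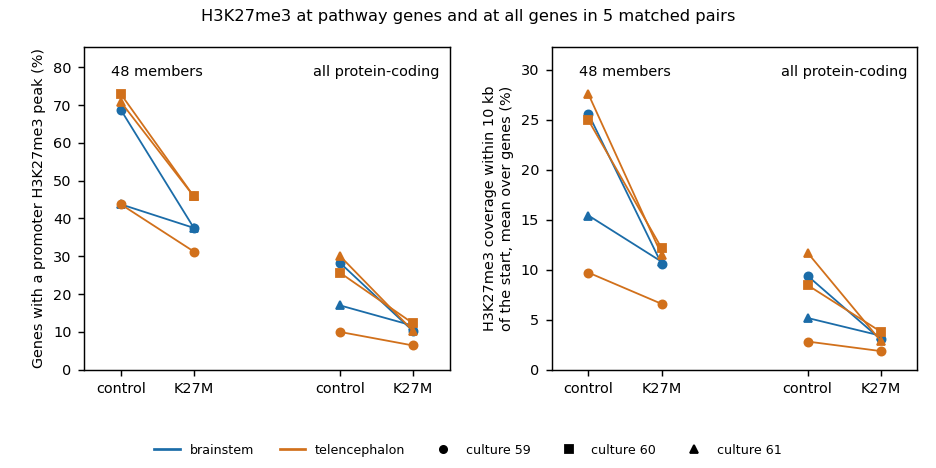
H3K27me3 in the 5 matched pairs, each line joining the control and the K27M culture of one number, for the 48 members and for all protein-coding genes: left, the percentage of genes with a promoter peak, and right, the percentage of the 10 kb either side of the gene start covered by peaks, averaged over genes. All 5 lines fall for both sets, and the members with a promoter peak range from 43.8% to 72.9% in controls and from 31.3% to 45.8% in K27M.

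The BMP and GDF ligands mostly kept a peak, with less of the promoter covered. The same 8 of 12 had an H3K27me3 promoter peak in every control and in every K27M culture, and *Bmp5* and *Gdf5* had one in 2 controls each and in no K27M culture. *Bmp2* encodes a ligand used widely to study BMP signalling. Of its promoter, H3K27me3 peaks covered 84.6% and 67.5% in the brainstem controls and 22.5% and 17.8% in the brainstem K27M cultures, and 7.90%, 80.2% and 86.8% in the telencephalon controls and 10.7%, 39.9% and 39.0% in the telencephalon K27M cultures. The coverage was below the control in 4 of 5 pairs, the exception being telencephalon 59, with a mean difference of −39.4 percentage points (SD 24.9, n = 5 pairs). At *Bmp3*, which encodes a ligand known to oppose other BMPs, the values were 81.9% and 42.1% in the brainstem controls and 29.6% and 19.7% in the brainstem K27M cultures, and 6.16%, 62.6% and 85.6% in the telencephalon controls and 5.73%, 49.7% and 29.2% in the telencephalon K27M cultures. All 5 pairs were lower in K27M, by 28.9 percentage points (SD 24.6, n = 5 pairs) on average, with p = 0.063 in the exact sign-flip test.

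*Bmp8b* was covered over 66.4% and 66.0% in the brainstem controls and 58.6% and 54.9% in the brainstem K27M cultures, and 50.0%, 60.5% and 62.4% in the telencephalon controls and 26.9%, 50.0% and 50.0% in the telencephalon K27M cultures, lower in 5 of 5 pairs by 13.0 percentage points (SD 5.9, n = 5 pairs). *Gdf10*, a ligand of the BMP3 subgroup, was also lower in 5 of 5 pairs, with a mean difference of −12.8 percentage points (SD 6.1, n = 5 pairs). *Gdf7*, a roof plate ligand, was covered over its whole promoter in all 10 cultures, and was the only member whose 5′ promoter was wholly covered in every K27M library (1.38% of protein-coding genes). *Bmp4* was wholly covered in 8 of the 10 cultures, the exceptions being telencephalon K27M 59 at 71.5% and 61 at 86.5%. These percentages are over the promoters of 4 starts, and at the 5′ promoter alone the exceptions had 41.6% and 72.3%. No culture had H3K4me3 at the 5′ promoter of *Bmp4*, so its bivalent state lay at other starts. In the plot of promoter coverage, the points of these 8 ligands stay above 0% in both genotypes.

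**Figure D3:**
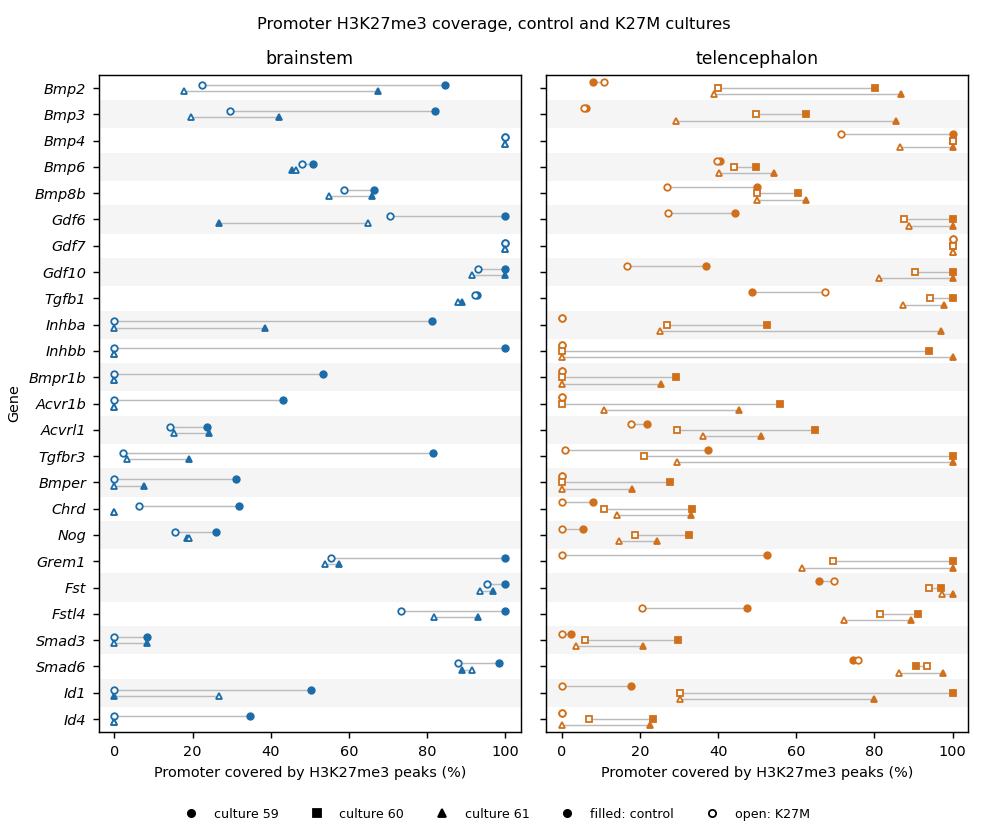
Percentage of the promoter bases covered by H3K27me3 peaks (x axis) for the 25 members bivalent in the controls of either region (rows), in brainstem (left) and telencephalon (right). Filled symbols are control and open symbols K27M cultures, symbol shapes give the culture number, and a grey line joins a matched pair. *Gdf7* stays at 100% in every culture, while *Inhbb* is at 94.0% and 100% in telencephalon controls 60 and 61 and at 0% in their K27M partners.

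The TGF-β and activin ligands split. *Tgfb1* kept its peak in all 10 cultures, at 92.9% and 89.0% in the brainstem controls and 92.2% and 87.8% in the brainstem K27M cultures, and 48.6%, 100% and 97.9% in the telencephalon controls and 67.4%, 94.2% and 87.4% in the telencephalon K27M cultures. In 4 of 5 pairs K27M was lower and in telencephalon 59 it was higher, so the mean difference was 0.1 percentage points with an SD of 11.2 (n = 5 pairs). *Inhba*, the activin A subunit, had 81.3% and 38.5% in the brainstem controls and 0% in both brainstem K27M cultures, and 0%, 52.4% and 97.0% in the telencephalon controls and 0%, 27.04% and 25.1% in the telencephalon K27M cultures. It was among the 3 members with an H3K27me3 peak in every brainstem control and no brainstem K27M culture, together with *Bmper* and *Smad3* (6.25% of members, against 5.00% of protein-coding genes, a similar share). Over the pairs its coverage changed by −43.4 percentage points (SD 33.5, n = 5 pairs). No K27M culture had a peak at its 5′ promoter, so the coverage in telencephalon K27M lay at another start. At *Inhbb*, the activin B subunit, coverage was 100% and 0% in the brainstem controls and 0% in both brainstem K27M cultures, and 0%, 94.0% and 100% in the telencephalon controls and 0% in all 3 telencephalon K27M cultures. Its mean difference, −58.8 percentage points (SD 53.7, n = 5 pairs), was the most negative of the 48 members, and it came from 3 pairs, with both cultures at 0% in the other 2. *Tgfb2* and *Tgfb3* had a peak in 2 and 1 of the controls and in no K27M culture.

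Among the 11 receptors, 4 had no H3K27me3 promoter peak in any culture, 3 had one in controls only and 4 in at least 1 K27M culture. *Tgfbr3*, the co-receptor betaglycan, had the most negative mean difference among the members lower in all pairs. Peaks covered 81.5% and 19.1% in the brainstem controls and 2.12% and 3.34% in the brainstem K27M cultures, and 37.3%, 100% and 100% in the telencephalon controls and 0.863%, 21.0% and 29.5% in the telencephalon K27M cultures. It was lower in 5 of 5 pairs by 56.2 percentage points (SD 28.7, n = 5 pairs), and each K27M culture was below each control of its region. *Acvrl1* was covered over 23.6% and 24.2% in the brainstem controls and 14.3% and 15.1% in the brainstem K27M cultures, and 21.9%, 64.8% and 50.9% in the telencephalon controls and 17.7%, 29.6% and 36.1% in the telencephalon K27M cultures. It was also lower in 5 of 5 pairs, by 14.5 percentage points (SD 12.2, n = 5 pairs) on average. *Bmpr1b*, a BMP type I receptor, had 53.4% and 0% in the brainstem controls and 0% in both brainstem K27M cultures, and 0%, 29.2% and 25.4% in the telencephalon controls and 0% in all 3 telencephalon K27M cultures. The peak was thus present in 3 controls and absent from all K27M cultures, as it was at *Tgfbr1*, while *Tgfbr2* had one in 2 controls only. *Acvr1b*, the activin type I receptor, had 43.1% and 0% in the brainstem controls and 0% in both brainstem K27M cultures, and 0%, 55.8% and 45.3% in the telencephalon controls and 0%, 0% and 10.8% in the telencephalon K27M cultures. Its start lies 45.5 kb from that of *Acvrl1* on chromosome 15, so these members are neighbours.

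*Bmpr2*, the BMP type II receptor, was the only member with higher promoter coverage in K27M in 5 of 5 pairs, a pattern of 0.0364% of protein-coding genes, at 0% and 4.45% in the brainstem controls and 7.08% and 7.33% in the brainstem K27M cultures, and 0%, 6.39% and 0% in the telencephalon controls and 6.27%, 6.94% and 7.05% in the telencephalon K27M cultures. The mean difference was 4.8 percentage points (SD 2.9, n = 5 pairs). The coverage came from a single peak of 303 to 499 bp, found in 7 libraries, that lay 87580 bp or more downstream of the 5′ end of the gene at internal transcript starts. With 1 start per gene, *Bmpr2* had no H3K27me3 promoter peak in any culture, and its 5′ promoter was H3K4me3 only.

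Of the 8 antagonists and modulators, *Fst* (follistatin, which binds activins) and *Fstl4* kept a peak in all 10 cultures. *Grem1*, the BMP antagonist gremlin, was covered over 100% and 57.4% in the brainstem controls and 55.5% and 54.0% in the brainstem K27M cultures, and 52.4%, 100% and 100% in the telencephalon controls and 0%, 69.3% and 61.4% in the telencephalon K27M cultures. It was lower in 5 of 5 pairs, by 33.9 percentage points (SD 18.8, n = 5 pairs) on average, and telencephalon K27M 59 alone had no peak. *Nog*, which encodes the BMP antagonist noggin, likewise lacked a peak only in telencephalon K27M 59. *Bmper*, a modulator that binds BMPs, had 31.0% and 7.63% in the brainstem controls and 0% in both brainstem K27M cultures, and 0%, 27.6% and 17.9% in the telencephalon controls and 0% in all 3 telencephalon K27M cultures. No K27M culture had a peak there, nor at *Fstl1*, where 3 controls had one. *Chrd*, the BMP antagonist chordin, had 31.8% and 0% in the brainstem controls and 6.22% and 0% in the brainstem K27M cultures, and 8.04%, 33.3% and 33.1% in the telencephalon controls and 0%, 10.8% and 14.1% in the telencephalon K27M cultures. It was lower in K27M in 4 of 5 pairs and at 0% in both cultures of brainstem 61. *Fstl4* was lower in 5 of 5 pairs, with a mean difference of −18.4 percentage points (SD 8.2, n = 5 pairs).

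The Smads were mainly H3K4me3 only. *Smad6*, which encodes an inhibitor of BMP signalling, was the exception, with H3K27me3 over 98.4% and 88.8% in the brainstem controls and 87.8% and 91.4% in the brainstem K27M cultures, and 74.5%, 90.7% and 97.6% in the telencephalon controls and 75.8%, 93.5% and 86.3% in the telencephalon K27M cultures. Coverage was lower in 2 and higher in 3 of the 5 pairs, with a mean difference of −3.1 percentage points (SD 7.2, n = 5 pairs). *Smad3* lies 264 kb from *Smad6* on chromosome 9 and had 8.29% and 8.25% in the brainstem controls and 0% in both brainstem K27M cultures, and 2.40%, 29.7% and 20.7% in the telencephalon controls and 0%, 5.87% and 3.71% in the telencephalon K27M cultures. The strongest peak at its promoters measured 2093 and 489 bp in the brainstem controls and 360, 4711 and 3957 bp in the telencephalon controls. The percentages are over the promoters of 5 starts. At the 5′ promoter alone, the brainstem controls had 0% and 16.3% and the telencephalon controls 0%, 65.7% and 59.4%. No K27M culture had a peak there. Over all starts of *Smad3*, all 5 pairs were lower in K27M, by 11.9 percentage points (SD 8.4, n = 5 pairs) on average. *Smad1* had 45.8% and 0% in the brainstem controls and 0% in both brainstem K27M cultures, and 11.5%, 30.0% and 38.0% in the telencephalon controls and 0% in all 3 telencephalon K27M cultures. It was the member with a peak in every telencephalon control and in no telencephalon K27M culture (2.08%, against 1.43% of protein-coding genes, a similar share), and its peaks lay at internal starts, 37528 bp or more from the 5′ end. *Smad2*, *Smad5*, *Smad7* and *Smad9* had a peak in 1 or 2 controls and in no K27M culture.

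All 4 Id genes had H3K4me3 in all 10 cultures, and their H3K27me3 varied between cultures. *Id1* was covered over 50.3% and 0% in the brainstem controls and 0% and 26.8% in the brainstem K27M cultures, and 17.8%, 100% and 79.8% in the telencephalon controls and 0%, 30.3% and 30.3% in the telencephalon K27M cultures. It was lower in 4 of 5 pairs and higher in brainstem 61, with a mean difference of −32.1 percentage points (SD 37.8, n = 5 pairs). *Id2* had H3K27me3 in telencephalon control 61 alone, at 27.2%. *Id3* had it in brainstem control 59, at 44.8%, and in telencephalon control 60, at 74.3%, and no K27M culture had it. *Id4* was covered over 34.8% and 0% in the brainstem controls and 0% in both brainstem K27M cultures, and 0%, 23.4% and 22.6% in the telencephalon controls and 0%, 6.83% and 0% in the telencephalon K27M cultures. Its brainstem call of bivalent rested on a 16319-bp peak of control 59, which a peak of control 61 overlapped outside the promoter. For *Id1*, *Id3* and *Id4* the controls of one region ranged from 0% upward and overlapped the K27M cultures.

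Across the classes, promoter coverage was lower in K27M in 5 of 5 pairs for 8 of the 48 members (16.7%, against 4.63% of protein-coding genes). Among genes with an H3K27me3 promoter peak in any culture these were 8 of 40 members, beside 12.7%. The 8 were *Bmp3*, *Bmp8b*, *Gdf10*, *Acvrl1*, *Tgfbr3*, *Grem1*, *Fstl4* and *Smad3*. With 1 start per gene the count was 6 (3.38% of protein-coding genes). Without telencephalon culture 59 the count was 13 (9.99% of protein-coding genes), without culture 59 of both regions 13 (10.6%) and without culture 61 of both regions 14 (6.02%), over fewer pairs. When the pairing was dropped and each K27M culture had to lie below each control of its region, in both regions, *Tgfbr3* alone met it (2.10%), and with peaks of at least 3-fold enrichment 1 member was lower in all pairs (0.487%).

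Within 10 kb either side of the gene start, coverage was lower in 5 of 5 pairs for 15 members (31.3%, against 9.70% of protein-coding genes), and for 0 members it was higher (0.0319%). Among genes with a promoter peak in any culture these were 15 of 40 members, beside 22.6%. They included 8 ligands of the BMP and GDF class, *Bmp2*, *Bmp3*, *Bmp4*, *Bmp6*, *Bmp8b*, *Gdf6*, *Gdf7* and *Gdf10*, the same 8 that kept a promoter peak in every culture. Averaged over the 48 members, peaks covered 25.6% and 15.4% of this window in brainstem controls 59 and 61 and 10.6% and 10.8% in the matched K27M cultures. In telencephalon 59, 60 and 61 they covered 9.70%, 24.9% and 27.5% in controls and 6.59%, 12.2% and 11.5% in K27M. The mean difference was −10.3 percentage points (SD 6.02, n = 5 pairs), beside −4.50 (SD 3.24) over protein-coding genes, lower in 5 of 5 pairs for both. By class it ran from −15.8 percentage points for the TGF-β and activin ligands (SD 11.7) and −15.1 for the BMP and GDF ligands (SD 7.93) to −4.61 for the Smads (SD 3.36). The classes started from unlike coverage, which limits a fall in percentage points. In brainstem 59 it went from 41.1% to 24.9% for the BMP and GDF ligands. For receptors it went from 15.6% to 1.06%, for Id genes from 24.1% to 2.06% and for Smads from 11.5% to 6.29%. Differences between classes were not tested. Without telencephalon culture 59 the count was 23 (18.7% of protein-coding genes) and without culture 59 of both regions 24 (19.8%), without the pairing it was 1 (5.15%), and with peaks of at least 3-fold enrichment 2 (1.26%).

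*Bmp4*, a ligand that induces dorsal cell fates in the neural tube, had its promoter covered in both genotypes within a shorter domain in K27M. Within 10 kb of its start, H3K27me3 peaks covered 100% and 92.0% in the brainstem controls and 83.7% and 89.2% in the brainstem K27M cultures, and 72.9%, 100% and 89.7% in the telencephalon controls and 40.8%, 62.3% and 57.0% in the telencephalon K27M cultures. At *Gdf7* the same window was covered over 77.1% and 80.8% in the brainstem controls and 70.0% and 59.1% in the brainstem K27M cultures, and 47.9%, 79.9% and 80.9% in the telencephalon controls and 38.1%, 61.2% and 60.3% in the telencephalon K27M cultures. Both genes were lower in 5 of 5 pairs, by 24.3 percentage points (SD 14.5, n = 5 pairs) and by 15.6 percentage points (SD 6.6, n = 5 pairs), while the promoter itself was covered as given above.

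For the members bivalent in the controls of a region, coverage within 1 kb of the start in K27M was 78.1% and 92.8% of the control level in brainstem 59 and 61 and 80.8%, 71.3% and 67.8% in telencephalon 59, 60 and 61. From 5 to 10 kb on either side it was 40.8% and 60.0%, and 58.8%, 47.3% and 33.1%. In all 5 pairs the flanks kept a smaller part of their coverage than the start, and the same held over all protein-coding genes bivalent in the controls, at 62.2%, 84.6%, 83.1%, 64.5% and 52.3% near the start and 40.8%, 67.4%, 73.1%, 54.7% and 33.2% in the flanks, in the same order. In the profile around the gene start, the H3K27me3 curves of K27M peak just downstream of the start as those of the controls do.

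**Figure D4:**
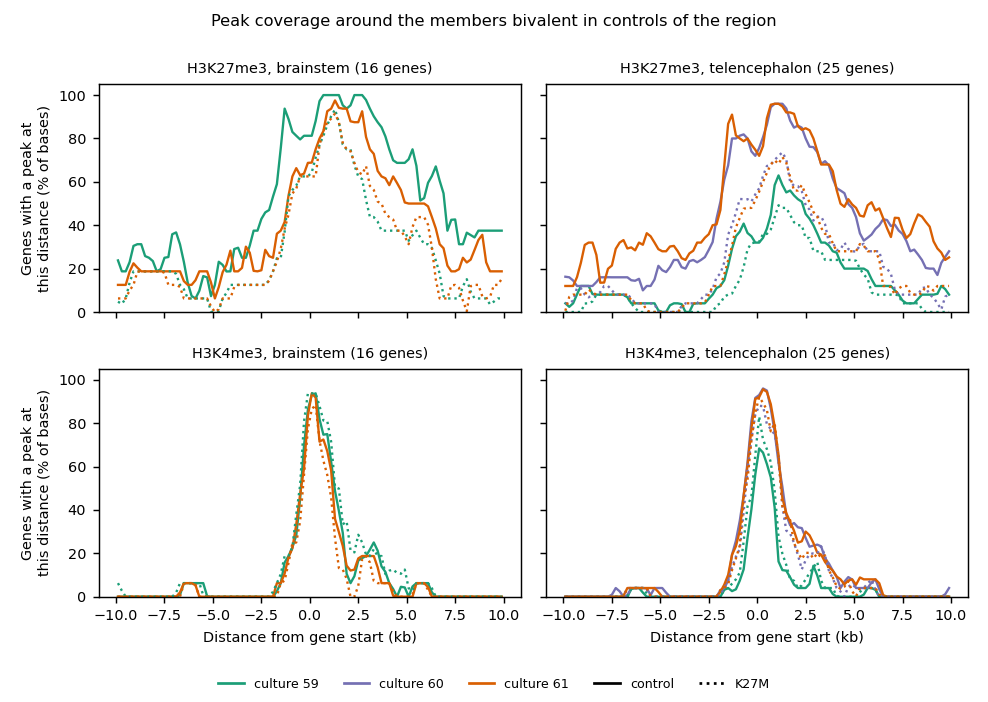
Percentage of bases covered by peaks in 200-bp bins (y axis) by distance from the 5′ end of the gene along its strand (x axis, kb), over the 16 members bivalent in brainstem controls (left) and the 25 bivalent in telencephalon controls (right), for H3K27me3 (top) and H3K4me3 (bottom). Colours give the culture and line style the genotype. From 5 to 10 kb, H3K27me3 coverage in brainstem 59 is 34.4% in the control and 14.0% in K27M, and within 1 kb 87.3% and 68.2%.

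H3K4me3 peaks were at a promoter of 41 of the 48 members in all 10 cultures (85.4%, against 58.0% of protein-coding genes), and in no culture at *Bmp5* and *Gdf5* (33.5% of protein-coding genes have none). The remaining 5 were *Bmp6*, *Gdf7*, *Tgfb1*, *Bmp8b* and *Acvrl1*, ligands and a receptor with H3K27me3 in every culture. The share of members with H3K4me3 differed between K27M and control by 0, 0, 4.17, −2.08 and −2.08 percentage points in the 5 pairs, a mean of 0 (SD 2.55), beside −0.260 over protein-coding genes. With peaks of at least 3-fold enrichment the mean was 7.08 percentage points, beside 1.33. At the 41 members, the strongest promoter peak had a median fold of 3.07 in telencephalon control 59 and 4.94 in its K27M partner. Its lowest fold was 1.71 and 2.03 in these libraries, and 4.10 to 27.7 in the others. The 3-fold limit can thus remove these members only in telencephalon pair 59. The part of that pair in the mean was not tested. Promoter coverage by H3K4me3 was higher in K27M in 5 of 5 pairs for *Smad7* and *Id4* (4.17% of members, against 3.65% of protein-coding genes, a similar share) and lower in 5 of 5 for 0 members (0.469%). Within 10 kb it was higher in 5 of 5 pairs for *Acvr2a*, *Tgfbr1* and *Smad9* (6.25%, against 3.78%) and lower for 0 members (0.392%). In members bivalent in a culture, H3K27me3 peaks lay over 33.5% to 69.0% of the H3K4me3-covered promoter bases in the 5 controls and 54.1% to 78.6% in the 5 K27M cultures, higher in K27M in each pair. The members bivalent in a culture differ between its control and K27M, 13 to 34 in controls and 11 to 19 in K27M.

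At the 14 members with H3K27me3 in all 10 cultures, the strongest promoter peak had a median fold enrichment over input of 5.91 and 5.25 in the brainstem controls and 8.92 and 11.0 in brainstem K27M, and of 2.59, 8.88 and 5.91 in the telencephalon controls and 3.23, 10.8 and 10.0 in telencephalon K27M. This median was higher in K27M in 5 of 5 pairs, but not every member followed it. From 1 to 7 of the 14 had a lower fold in K27M, depending on the pair. *Bmp3* and *Tgfbr3* were lower in 4 pairs, and *Bmp2* went from 9.34 to 4.48 in telencephalon 60. Ranked among all H3K27me3 peaks of its own library, the median percentile of the 14 was lower in K27M in 4 of 5 pairs. It went from 98.7 and 96.9 to 92.3 and 95.4 in brainstem 59 and 61, and from 98.8 to 96.7 and 93.2 in telencephalon 60 and 61. In telencephalon 59 it went from 58.7 to 76.0. The median length of the peak was lower in K27M, from 9072 and 6558 bp to 4173 and 3838 bp in the brainstem and from 3669, 8484 and 10350 bp to 2898, 5777 and 6322 bp in the telencephalon. Fold enrichment is relative to the background of each library and was not scaled to the Drosophila spike-in, so it does not compare amounts of H3K27me3. The highest fold enrichment anywhere in a library was also higher in K27M in each pair.

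Of 59 further genes of the pathway, taken from a list of other ligands, co-receptors, antagonists, regulators and targets, 16 were bivalent in brainstem controls (27.1%, against 9.32% of protein-coding genes) and 27 in telencephalon controls (45.8%, against 14.5%). In the K27M cultures 11 were bivalent in the brainstem (18.6%, against 6.16%) and 10 in the telencephalon (16.9%, against 6.93%). Promoter H3K27me3 coverage was lower in K27M in 5 of 5 pairs for 9 (15.3%, against 4.63% of protein-coding genes) and higher for 0 (0.0364%). Of the 59, 23 had no H3K27me3 promoter peak in any culture, and among protein-coding genes with such a peak 12.7% were lower in 5 of 5 pairs. Of 21 antagonists and matrix modulators, 7 were bivalent in the brainstem and 14 in the telencephalon. An H3K27me3 peak in every brainstem control and no brainstem K27M culture was found at *Acvr1c*, a type I receptor, and at *Fstl3*, *Crim1* and *Tll1*, so at 4 of the 59 (6.78%, against 5.00% of protein-coding genes). The same in the telencephalon was found at 1, *Ccn2*, a TGF-β target gene (1.69%, against 1.43%). Both shares were near those of all protein-coding genes. *Msx1*, *Msx2*, *Dlx5* and *Atoh8*, targets of BMP signalling, had an H3K27me3 promoter peak in all 10 cultures. Of the 4 endothelial markers, *Flt1* and *Cldn5* also had H3K27me3 in all 10 cultures, beside *Acvrl1*. *Kdr* lacked it in 1 brainstem K27M culture only, and *Pecam1* had it in no culture. The part of other cell types in these values was not tested.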

How the data were processed

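H3K4me3 and H3K27me3 were profiled by ChIP-seq in 10 OPC cultures, and the authors called peaks for each library against its input with MACS2 (2.2.7.1) after alignment with BWA (0.7.17-r1188) to mm10, as narrow peaks for H3K4me3 and broad peaks for H3K27me3. The deposited columns hold fold enrichment over input as a ratio, p- and q-values as −log10, and an integer score. The Drosophila spike-in does not enter these values, and input libraries were not analysed here.

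Promoters were taken from GENCODE M21, while the study used M25, and each was a window of 3000 bp, with 2000 bp before and 1000 bp after a transcript start. Of the 48 members 33 had more than 1 start, and values are over the union of a gene's promoters. A peak was present with at least 1 bp of overlap. Consensus peaks per group combined overlapping peaks of at least 2 cultures, weak at p of 1e-06 (H3K4me3) or 0.0001 (H3K27me3) and stringent, by Fisher's combined p, at 1e-10 or 1e-08. Differences were taken within matched cultures. Each of 21951 protein-coding genes was tested with an exact permutation of the signs over 5 pairs (two-sided, 32 arrangements). Benjamini-Hochberg adjustment followed. The sign of each pair was flipped separately, although brainstem and telencephalon pairs share culture numbers and may share litters. Scripts were written in Python (3.11.15), used scipy (1.17.1), numpy (2.4.6) and matplotlib (3.10.9), and were tested on simulated data.

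Cultures were paired by region and culture number, as the study pairs K27M and control cultures. Deviations from the group means correlated between paired cultures at r = 0.756, 0.440 and 0.548 for H3K4me3 in telencephalon 59, 60 and 61 and at 0.062 in the brainstem, and for H3K27me3 at 0.590, 0.370 and −0.075 and at −0.111. The members, the other pathway genes and the markers were chosen with earlier results of these data known. Values in every library are given for members whose control state differed between regions, that had H3K27me3 in every control and no K27M culture of a region, or that had the 8 most negative or 4 most positive mean differences of promoter coverage, for members with the main promoter wholly covered in every K27M library, and for the Id genes. Values for *Bmp4*, *Gdf10*, *Fstl4* and *Smad6* were added after their values were seen. Alternatives were a −log10 q of at least 3, a fold of at least 3, equal numbers of peaks, an overlap of 500 bp, promoters of 500 bp either side, 1 start per gene, no pairing and leaving out each culture number. Columns of peak summits were not used.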

Additional observations from a re-analysis of the deposited data

Results flagged for a closer look

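H3K4me3 coverage within 10 kb of the start differed in direction between the regions at *Bmp7* and *Fstl4*. At *Bmp7*, a BMP ligand, every brainstem pair was higher in K27M, with a mean difference of 0.445 percentage points, and every telencephalon pair was lower, with a mean of −1.21. At *Fstl4*, a follistatin-like gene, the means were 0.200 percentage points in the brainstem and −0.563 in the telencephalon. Its telencephalon pair 59 differed by only −0.005 percentage points. The difference between the regions was not tested, with 2 brainstem and 3 telencephalon pairs. For H3K4me3 at promoters and for H3K27me3 in either window, 0 members differed in this way. Groups of 2 and 3 cultures are too small for the search for single cultures far from the rest.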

How the results depend on the processing

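Of 83 alternative values, 64 stayed within the limits set for each (1.5 times for a count, 1 SD over pairs for a difference), 19 moved and 0 reversed. The 25 members bivalent in telencephalon controls (14.5% of protein-coding genes) became 13 when a peak was needed in every control culture (4.73%). Without 1 culture number they ranged from 11 to 25 (4.85% to 14.4%). The brainstem count ranged from 12 to 20 (4.07% to 9.32%), the 12 and the 20 from the stringent peaks of the 1 control left. Without 1 culture number, the count whose state differed between regions ranged from 5 to 13 (8.24% to 14.8% of protein-coding genes). The difference in members with an H3K27me3 promoter peak was −4.17 percentage points with a fold of at least 3 and −6.25 with equal numbers of peaks, and −23.6 to −18.8 without 1 culture number. The difference for H3K4me3 was 7.08 with a fold of at least 3 (1.33 over protein-coding genes), and −1.39 to 0.694 without 1 culture number. At the 41 members with H3K4me3 in all 10 cultures, strongest peaks under 3-fold occurred only in telencephalon pair 59. Mean H3K27me3 coverage within 10 kb ranged from −12.1 to −9.69 percentage points without 1 culture. Members with lower promoter coverage in all pairs numbered 8 as reported (4.63% of protein-coding genes). They numbered 5 with a −log10 q of at least 3 (2.39%) and 5 with equal numbers of peaks (2.21%). With a fold of at least 3 there was 1 (0.487%). With promoters of 500 bp either side there was 1 of the 48 members, near the share of protein-coding genes (1.90%). Without 1 culture there were 8 to 14 (4.76% to 10.6%). Within 10 kb, 15 as reported (9.70%) became 2 with a fold of at least 3 (1.26%), and 15 to 24 without 1 culture (9.81% to 19.8%). The cause of these shifts was not tested, apart from the fewer pairs and fewer peaks that the alternatives themselves use.

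Without the replicate block, so without the pairing, 1 member was lower at its promoter (2.10% of protein-coding genes) and 1 within 10 kb (5.15%). The rule was that each K27M culture lies below each control of its region. The differences without the pairing were −20.1 percentage points for H3K27me3 peaks, 0 for H3K4me3 peaks and −10.2 for coverage within 10 kb, with no change of direction. The H3K27me3 deviations of the brainstem cultures correlated at −0.111. The brainstem pairs were also crossed, an alternative chosen after seeing the data. Then 9 members were lower in all pairs at the promoter (4.98% of protein-coding genes) and 14 within 10 kb (10.0%). Leaving out telencephalon culture 59 alone was also chosen after seeing the data. Peak lists hold no read depth, so loss of a peak and signal under the caller's threshold cannot be told apart.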
